A study of Homo sapiens with 2 samples.

Results

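The end of the long arm of chromosome 3, bands 3q26 to 3q29, carries a run of genes that is recurrently gained in squamous carcinomas. The expression of its protein-coding genes was described here in 2 lung cancer cell lines. Members were the genes with an NM_ (protein-coding RefSeq) transcript whose position on hg19 started on chromosome 3 at base 160000000 or beyond. The symbols SOX2, TP63 and HES1 and the claudin, mucin, ABC, NDUF, MRP, DNAJ and PSM symbols were left out of this choice. This gave 172 of the 187 coding genes of the interval, among 27685 genes in the gene table, with the last member ending at base 197770591. This rule uses position and name, and no expression value.

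The study examined gene regulation in lung adenocarcinoma with H2087, an established human cell line. Its RNA sequencing comprised 1 library of H2087 and 1 library of H596, another established lung cancer line, which the labels call lung adenocarcinoma as well. Both lines were untreated, carried no named genetic change, and were grown in RPMI medium with fetal bovine serum and antibiotics. Each line is a single culture-adapted tumor line, neither stands for a tumor class, and no copy number was measured.

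Copy number gain raises the number of templates of a gene, and genes of a gained stretch often, but not always, give more RNA. Several genes of this stretch have been studied as drivers in squamous tumors, among them PIK3CA, the catalytic subunit of a lipid kinase, PRKCI, an atypical protein kinase C, and ECT2, a protein needed for the last step of cell division. The stretch also holds liver plasma protein genes, hormone genes, taste and smell receptor helpers and many housekeeping genes, and so no single pathway.

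In H2087 the total estimated count was 46961500 and in H596 it was 55387847, of which the members held 0.994% and 1.01%. The labelled tumor type was set against defining markers. NKX2-1, the transcription factor that marks lung adenocarcinoma, had 110.0 FPKM (fragments per kilobase of transcript, scaled to the mapped reads of the library) in H2087 and 0.508 in H596, and 4 of the 5 adenocarcinoma markers reached 1 FPKM in H2087 against 1, the keratin KRT7, in H596. Their summed level was 1023 FPKM in H2087 and 609 in H596, of which KRT7 alone held 791 and 608. SFTPB was below 1 FPKM in both lines. The 6 squamous and basal markers summed to 40.8 FPKM in H2087, where 2 reached 1 FPKM, and to 307 in H596, where all 6 did. TP63 and SOX2, which lie in the same stretch but are no members, had 0.183 and 39.1 FPKM in H2087 and 55.2 and 56.5 in H596. Of the adenocarcinoma markers of its label, H596 thus carried KRT7 but not NKX2-1, NAPSA or SFTA3, which H2087 did carry. The part that tumor type has in any difference below was not tested. The leukocyte markers PTPRC and CD3E had 0 counts in both libraries, the other leukocyte markers reached 1 FPKM only for CD68, a lysosomal protein also made outside leukocytes, and the 6 stromal and endothelial markers summed to 4.25 FPKM in H2087 and 11.04 in H596. With bulk RNA, fewer expressing cells and less RNA per cell cannot be told apart.

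Before the values, the sequence just upstream of 5 members is shown. For each, the 250 bases before the annotated start of the NM_ transcript with the highest mean FPKM were read from the GRCh37 genome, which is hg19, in the direction of transcription. ETV5, an ETS-family transcription factor, had the largest difference towards H2087, and its window is given because it holds CCAAT 4 times (capitals). The window belongs to NM_004454 on the minus strand, chr3:185826902-185827151.
ETV5: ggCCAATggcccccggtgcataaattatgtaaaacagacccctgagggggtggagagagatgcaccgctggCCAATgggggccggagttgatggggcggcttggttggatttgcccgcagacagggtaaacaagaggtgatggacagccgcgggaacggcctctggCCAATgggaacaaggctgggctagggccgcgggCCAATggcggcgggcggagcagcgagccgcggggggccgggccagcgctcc
The 4 copies all face the same way, and each is followed by GG. ETV5 was the only member with 4 or more copies on either strand, a number found in 168 of the 18324 windows of all coding genes (0.917%). CCAAT was present at least once before 42 of the 169 members with a window (24.9%) and before 32.6% of all genes.

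TNFSF10, which encodes the death ligand TRAIL, and RTP4, a chaperone of membrane receptors known as an interferon-induced gene, were among the 5 members with the largest differences towards H596. Their windows are given for the pattern GAAA, any 2 bases, GAAA in capitals, which was searched on both strands because such repeats occur in interferon response elements. The TNFSF10 window is that of NM_003810 on the minus strand, chr3:172241298-172241547, and holds the pattern as its reverse complement.
TNFSF10: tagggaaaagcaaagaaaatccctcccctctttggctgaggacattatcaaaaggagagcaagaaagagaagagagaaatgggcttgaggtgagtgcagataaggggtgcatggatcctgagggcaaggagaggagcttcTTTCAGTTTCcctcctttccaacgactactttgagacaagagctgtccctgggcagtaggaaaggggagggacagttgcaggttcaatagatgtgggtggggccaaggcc
The RTP4 window is that of NM_022147 on the plus strand, chr3:187085918-187086167.
RTP4: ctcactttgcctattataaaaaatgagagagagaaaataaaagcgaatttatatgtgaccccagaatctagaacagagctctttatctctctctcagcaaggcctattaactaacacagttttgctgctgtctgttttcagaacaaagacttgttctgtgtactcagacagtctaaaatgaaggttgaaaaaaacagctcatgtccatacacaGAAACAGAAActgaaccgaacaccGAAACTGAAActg
RTP4 had the pattern in 2 places, the last ending a few bases before the start. The pattern was present before 8 members (4.73% of 169) and before 2.69% of all 18324 windows. The other 6 members were EIF4G1, FGF12, LAMP3, PEX5L, GNB4 and LRRC31, and their differences between the lines ran in both directions or could not be compared. These motifs were chosen after the expression values had been seen, and a match describes the letters and not a bound site.

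GNB4, a G protein beta subunit, and AHSG, the liver plasma protein fetuin-A, are given as windows rich and poor in CpG pairs, marked by capitals. The GNB4 window is that of NM_021629 on the minus strand, chr3:179169372-179169621, with 27 CpG pairs.
GNB4: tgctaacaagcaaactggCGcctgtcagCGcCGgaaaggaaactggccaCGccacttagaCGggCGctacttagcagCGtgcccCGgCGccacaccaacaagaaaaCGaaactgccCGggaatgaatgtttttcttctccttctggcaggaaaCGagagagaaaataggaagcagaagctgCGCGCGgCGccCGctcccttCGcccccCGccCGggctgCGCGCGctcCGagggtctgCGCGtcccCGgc
The AHSG window is that of NM_001622 on the plus strand, chr3:186330600-186330849, with 2 CpG pairs.
AHSG: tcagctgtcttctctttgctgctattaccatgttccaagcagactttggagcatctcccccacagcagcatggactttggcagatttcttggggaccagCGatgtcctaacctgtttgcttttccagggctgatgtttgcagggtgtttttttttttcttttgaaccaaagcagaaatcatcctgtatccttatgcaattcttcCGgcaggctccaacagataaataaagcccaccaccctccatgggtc
GNB4 was expressed in H2087 at 3.50 FPKM and almost absent from H596 at 0.0329, whereas AHSG stayed below 1 FPKM in both lines, at 0.296 and 0.0825. The counts of CpG pairs over all members follow further on, beside the levels they were set against.

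Most members were expressed, at moderate levels. In H2087, 37 members had 0 counts, 26 had some counts but less than 1 FPKM, 52 lay from 1 to 10 FPKM, 52 from 10 to 100 and 5 at 100 or above. In H596 the numbers in the same order were 39, 22, 45, 61 and 5. The share of members at 0 counts, 21.5% in H2087 and 22.7% in H596, stood beside 24.5% and 24.6% of all coding genes. The share at 100 FPKM or above, 2.91% in each line, stood beside 3.55% of all coding genes in H2087 and 3.20% in H596. Over all members the median was 4.90 FPKM in H2087 and 5.80 in H596.

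The highest member in both lines was RPL35A, a protein of the large ribosomal subunit, with 1384 FPKM in H2087 and 674 in H596. It held 34.9% of the summed member FPKM in H2087 and 19.6% in H596. EIF4A2, an RNA helicase of translation initiation, followed with 294 and 220.5 FPKM, and AP2M1, an adaptor subunit of clathrin-mediated endocytosis, had 244 and 258. EIF4G1, the scaffold of the cap-binding complex, had 173 and 153 FPKM. These 4 were the members at 100 FPKM or above in both lines. TFRC, the transferrin receptor, reached that level in H2087 alone, with 111 FPKM against 82.5, and TNFSF10 in H596 alone. The high end of the stretch thus consisted of translation and membrane traffic genes in both lines, with TNFSF10 as the exception.

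**Figure D1:**
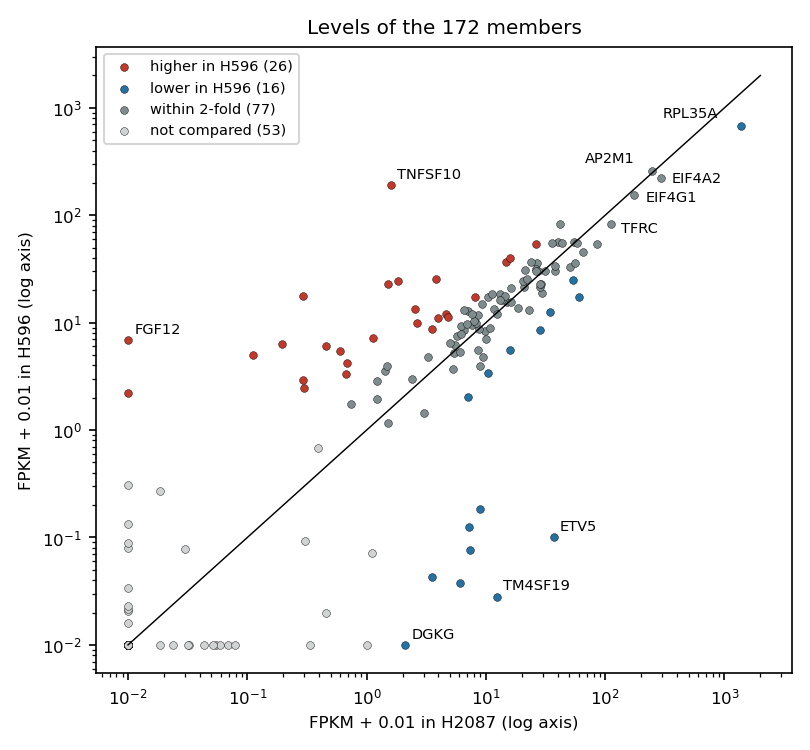
FPKM of the 172 members in H2087 (horizontal) and H596 (vertical), both on log axes after adding 0.01 so that values of 0 can be drawn. Each point is 1 member, the diagonal marks equal levels, red points are the 26 members at least 2-fold higher in H596 and blue points the 16 at least 2-fold lower, on the scale of log2(FPKM + 1). Most points lie near the diagonal, with TNFSF10, FGF12 and B3GALNT1 far above it and ETV5 and TM4SF19 far below. The distances of FGF12 and B3GALNT1 depend on the added 0.01, since both are at 0 in H2087.

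Members with a mean of at least 1 FPKM were compared between the lines, by subtracting the log2(FPKM + 1) value of H2087 from that of H596. This scale understates the differences of low genes. A member below 1 FPKM in 1 line can reach the required mean through the other line alone, which fixes its direction. With 1 library per line there is no replicate and no test, so a member is counted as higher or lower when the difference is at least 1 in size, which is 2-fold on this scale. Of the 172 members, 119 were compared. The remaining 53 comprised 26 members with 0 counts in both libraries and 27 with some counts.

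Of the 119 compared members, 26 (21.8%) were higher in H596 and 16 (13.4%) were lower, while 77 stayed within 2-fold. Among all 13048 genes compared, 18.2% were higher and 14.2% lower. The members' shares were near this background. Their median difference was 0.24, against 0.12 over all genes and 0.11 over the 11785 coding genes outside the stretch. The middle 50% of the members lay between -0.41 and 0.85. The median stood no higher than on the rest of the chromosome, where it was 0.38 over 337 coding genes that start within the first 90 Mb and 0.30 over 221 genes from 90 to 160 Mb. A stretch with more RNA from H596 throughout was thus not seen, and the members that differed were single genes in both directions. Counting error was small beside these differences. The 95% interval of the fold in counts lay beyond 2 for 41 of the 42 members called, and the 1 exception was MAP3K13.

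Along the stretch, the median difference was 0.34 over the 17 compared members that start between 160 and 170 Mb, 0.04 over 19 from 170 to 180 Mb, 0.16 over 44 from 180 to 190 Mb and 0.28 over 39 from 190 Mb to the end. Members higher in H596 numbered 5, 4, 9 and 8 in these intervals, and members lower numbered 1, 3, 8 and 4. Each interval held members of both directions, and the median nearest 0, that of 170 to 180 Mb, turned to -0.09 with TMM scaling of the counts. Over windows of 11 neighbouring compared members, the running median was highest, at 1.26, around TPRG1, a gene next to TP63. That window ran from ST6GAL1 to MB21D2 (186648315 to 192635950), with 6 members higher, among them RTP4, P3H2, CCDC50 and FGF12, and 3 lower. It was lowest, at -0.64, around CRYGS, in the window from SENP2 to RPL39L (185304031 to 186857311), where 5 members were lower and 1 was higher. The highest and lowest windows therefore lay side by side and shared ST6GAL1 and RPL39L, both lower in H596.

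**Figure D2:**
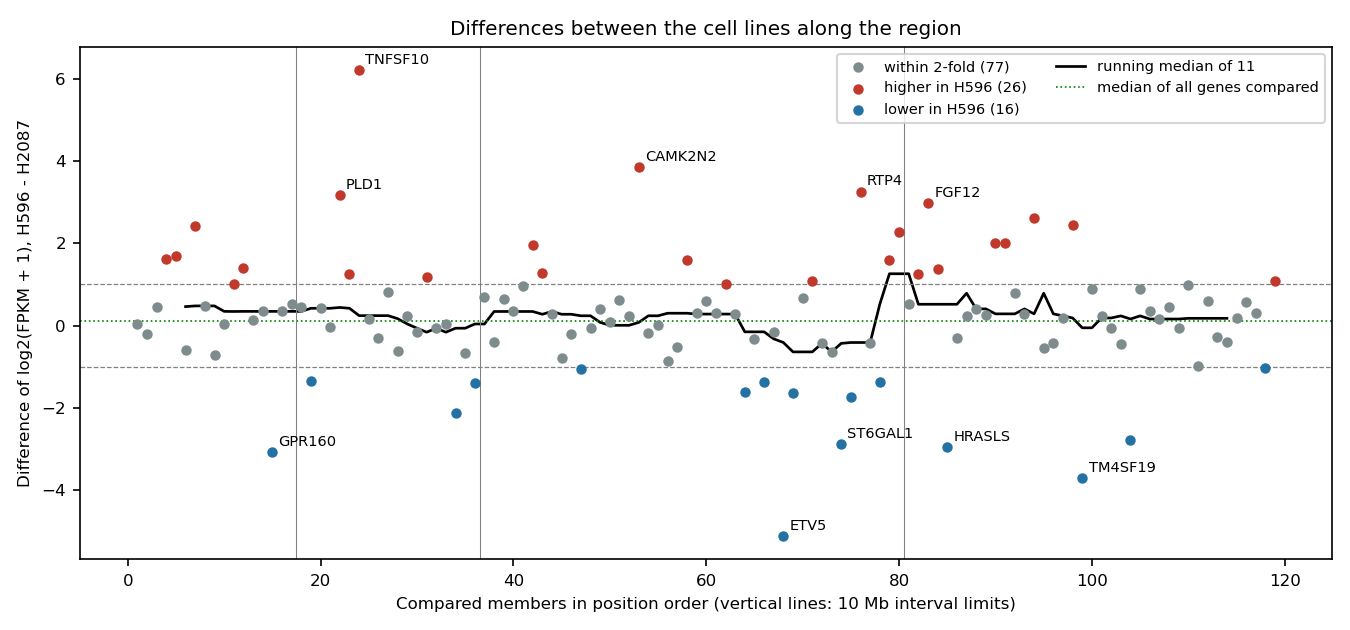
Difference between the lines in log2(FPKM + 1), as H596 minus H2087, of the 119 compared members, in position order along the chromosome. Dashed lines mark 2-fold, the black line is the running median of 11 neighbours, the dotted line is the median of all genes compared (0.12), and vertical lines part the 10 Mb intervals. The windows that give the lowest running median, -0.64, and the highest, 1.26, lie side by side and share members.

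A list of 20 genes known for this amplicon was described on its own, without SOX2 and TP63, which the rule leaves out, and all 20 were compared. The median difference of the list was -0.17, with 2 genes higher in H596, 3 lower and 15 within 2-fold. List medians here and below are on the FPKM scale, on which the median of all genes was 0.12, and other scalings shift them all. All list counts are to be read beside the 18.2% of all genes that were higher and the 14.2% that were lower. It held ETV5, the member furthest towards H2087, and FGF12, the fifth furthest towards H596 on this scale, while its best known genes were close in level. PIK3CA had 6.11 FPKM in H2087 and 5.35 in H596. PRKCI had 21.2 and 31.0 FPKM, and ECT2 had 38.2 and 30.5. TNIK, a kinase of Wnt signalling, had 5.38 and 5.18 FPKM. The differences of these 4 were -0.16, 0.53, -0.32 and -0.05, which left all of them within 2-fold.

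The transcription and chromatin genes of the list were mostly of like level. TBL1XR1, a subunit of a corepressor complex, had 29.5 FPKM in H2087 and 18.8 in H596. ACTL6A, an actin-like subunit of chromatin remodelling complexes, had 85.8 and 53.9 FPKM. SKIL, a repressor of SMAD signalling, had 3.27 and 4.80 FPKM, and ZNF639, a zinc finger protein, had 16.2 and 15.5. None of these 4 differed by 2-fold. MECOM, a zinc finger transcription factor of blood stem cells and leukemia, was higher in H596 at 17.4 FPKM against 8.08, a difference of 1.02 that only just passed 2-fold and fell to 0.98 with TMM scaling of the counts.

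MECOM also differed in which of its forms were measured. The long form NM_004991, which runs to base 169381563 and so starts far upstream of the short forms (168864400 for NM_001105078), had 254 counts in H2087 and 1485 in H596, or 0.955 and 4.73 FPKM. Its share of the MECOM value was 11.8% in H2087 and 27.2% in H596. The short forms NM_001105078 and NM_001164000 made up most of the value in both lines. How reads were divided among forms that share exons is an estimate, so these shares are less certain than the gene value.

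ETV5 had 7272 counts in H2087 and 21 in H596, or 37.0 FPKM (95% counting interval, 36.1 to 37.8) and 0.0901 (0.0589 to 0.138). ETV5 is a target and an effector of FGF and ERK signalling in lung epithelium. Its difference was -5.12, and the FPKM ratio was 410.5-fold towards H2087. It has 1 NM_ transcript, so the division of reads among forms plays no part in this value. FGF12, an intracellular FGF-like protein that binds sodium channels, showed the opposite pattern. It had 0 counts in H2087 and 2412 in H596 (6.88 FPKM), so it was at least 682-fold higher in H596 when 3 counts are set as the limit of a count of 0 in H2087. Nearly all of it, 2411 counts, was the form NM_021032.

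The other members lower in H596 on this list were GNB4 and IGF2BP2. GNB4 had 1079 counts in H2087 and 12 in H596, a difference of -2.12. IGF2BP2, an RNA-binding protein of fetal growth, had 34.2 FPKM in H2087 and 12.6 in H596, a difference of -1.37. Its forms did not differ alike, since NM_006548 had 6.12 and 6.58 FPKM while NM_001291869 had 5.51 and 0.504. The remaining list members were within 2-fold. FXR1, an RNA-binding relative of the fragile X protein, had 28.6 FPKM in H2087 and 21.4 in H596. DCUN1D1, which promotes the neddylation of cullins, had 6.57 and 8.59 FPKM, and SENP2, a SUMO protease, had 29.2 and 23.1. EIF5A2, a translation factor, was low in both lines at 1.20 and 1.94 FPKM, while PAK2, a p21-activated kinase, had 27.2 and 30.5. EIF4G1 and TFRC, given above, differed by -0.18 and -0.42.

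**Figure D3:**
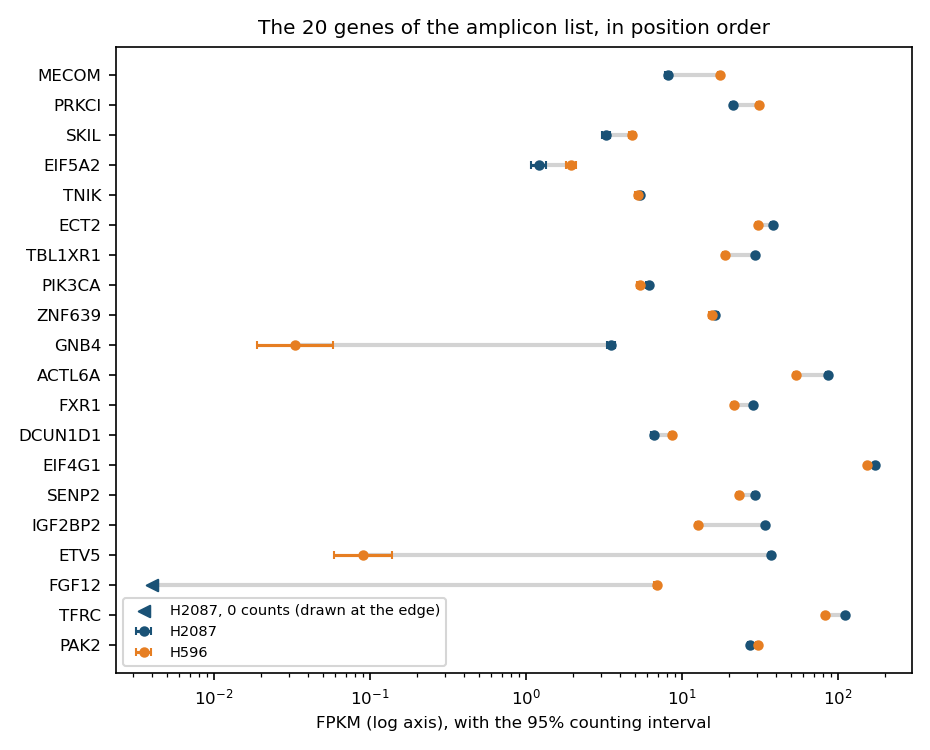
FPKM on a log axis of the 20 genes of the amplicon list in H2087 (blue) and H596 (orange), from the start of the stretch at the top to its end. Bars are 95% counting intervals, the triangle marks 0 counts for FGF12 in H2087, and only ETV5, GNB4 and FGF12 have their points more than 100-fold apart.

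The member furthest towards H596 on the log2(FPKM + 1) scale was a signalling gene. Of 22 listed genes, 20 were compared, 7 were higher in H596 and 2 were lower, beside 18.2% and 14.2% over all genes, and the median difference was 0.52. TNFSF10 had 144 counts in H2087 and 21095 in H596, or 1.58 FPKM (1.34 to 1.86) and 191 (188 to 194). Its difference of 6.22 was the largest of the 119 on this scale, at an FPKM ratio of 121-fold. With TMM scaling of the counts FGF12, which had 0 counts in H2087, came before it, at 10.06 against 6.81. The full-length form NM_003810 had 43 counts in H2087 and 20012 in H596, and its share of the gene value was 28.6% and 94.5%. Part of the low H2087 value came from a noncoding transcript, and over NM_ transcripts alone the levels were 0.984 and 184 FPKM.

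PLD1, which makes the lipid messenger phosphatidic acid, had 518 counts in H2087 and 8251 in H596, or 1.83 and 24.6 FPKM, a difference of 3.18. CAMK2N2, an inhibitor of the calcium/calmodulin-dependent kinase CaMKII, had 19 and 1368 counts, or 0.283 and 17.7 FPKM, a difference of 3.87. Its span lies within that of ECE2, and ECE2, an endothelin-converting protease, stood at 13.8 FPKM in H2087 and 16.4 in H596. The neighbour thus stayed within 2-fold while CAMK2N2 differed by 62.6-fold. EPHB3, an ephrin receptor, was higher in H596 by 1.59, at 2.63 FPKM in H2087 and 9.94 in H596. CCDC50, a regulator of NF-kappaB signalling, had 3.98 and 10.9 FPKM.

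MAP3K13, a kinase upstream of JNK, was listed at 26.5 FPKM in H2087 and 54.0 in H596, a difference of 1.002. This value did not describe its coding transcripts. A noncoding transcript at the start of the gene, NR_038322, held 96.0% of the value in H2087 and 97.2% in H596, and over the NM_ transcripts the level was 1.06 and 1.49 FPKM, within 2-fold. Besides GNB4, the signalling gene lower in H596 was DGKG, a diacylglycerol kinase, with 586 counts in H2087 and 0 in H596. It was at least 230-fold lower in H596 with 3 counts as the limit. PLD1 and DGKG act on the same lipid messenger, PLD1 making it from phosphatidylcholine and DGKG from diacylglycerol, and they differed in opposite directions.

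Genes listed for chromatin and transcription had a median difference of 0.04 over 16 compared, with 3 higher in H596 and 2 lower. The higher genes were MECOM, TBCCD1 and MB21D2. TBCCD1 is a centrosome protein and MB21D2 a nucleotidyltransferase-like protein, so neither is a known transcription factor. MB21D2 had 0.664 FPKM in H2087 and 3.29 in H596, the highest difference of this list at 1.37. The lower genes were ETV5 and LPP, an adhesion protein of the zyxin family, which had 10.3 and 3.36 FPKM. TBCCD1 differed by 1.09, and its forms changed order. NM_001134415 made up 54.0% of its value in H2087 and 10.9% in H596, and NM_018138, which starts about 3 kb downstream, made up 46.0% and 89.1%.

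Genes of translation and RNA binding were compared in full, 15 of 15, with a median of -0.18, none higher in H596 and 4 lower, beside 18.2% and 14.2% over all genes. Besides IGF2BP2, the lower genes were 3 ribosomal protein genes. RPL39L, a ribosomal protein variant of the testis and some tumors, had 59.9 FPKM in H2087 and 17.4 in H596, a difference of -1.73. RPL35A differed by -1.04 at the levels given above. RPL22L1, a paralog of RPL22, had 15.8 and 5.60 FPKM, but a noncoding transcript held 75.3% of it in H2087 and 47.8% in H596, and over its NM_ transcripts the difference was -0.32. Reads of ribosomal protein genes are shared with near-identical copies elsewhere in the genome, so these values are uncertain. TTC14, a protein of unclear role in RNA binding, was the highest of the list with 10.3 FPKM in H2087 and 17.4 in H596, within 2-fold. EIF4G1 kept its main form NM_198241 at 115 and 116 FPKM, whereas NM_198244 had 7.29 in H2087 and 0.515 in H596.

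No gene of the replication, repair and mitosis list differed by 2-fold. The median of the 8 compared was -0.08, from ACTL6A at -0.66 to CEP19, a centrosome and cilium protein, at 0.89. SMC4, a condensin subunit, had 54.7 FPKM in H2087 and 56.4 in H596. RFC4, a clamp loader of replication, had 56.1 and 35.6. CEP19, with 1.43 and 3.50 FPKM, passed 2-fold on other scales, with a difference of 1.23 in TPM and 1.16 with TMM. The ubiquitin and SUMO enzymes were alike in this respect, with a median of 0.09 over 8 compared and 1 member past 2-fold. That was USP13, a deubiquitinase, at 7.08 FPKM in H2087 and 2.04 in H596, a difference of -1.41. SENP5, a SUMO protease, was the highest of that list, with 6.91 and 9.73 FPKM.

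**Figure D4:**
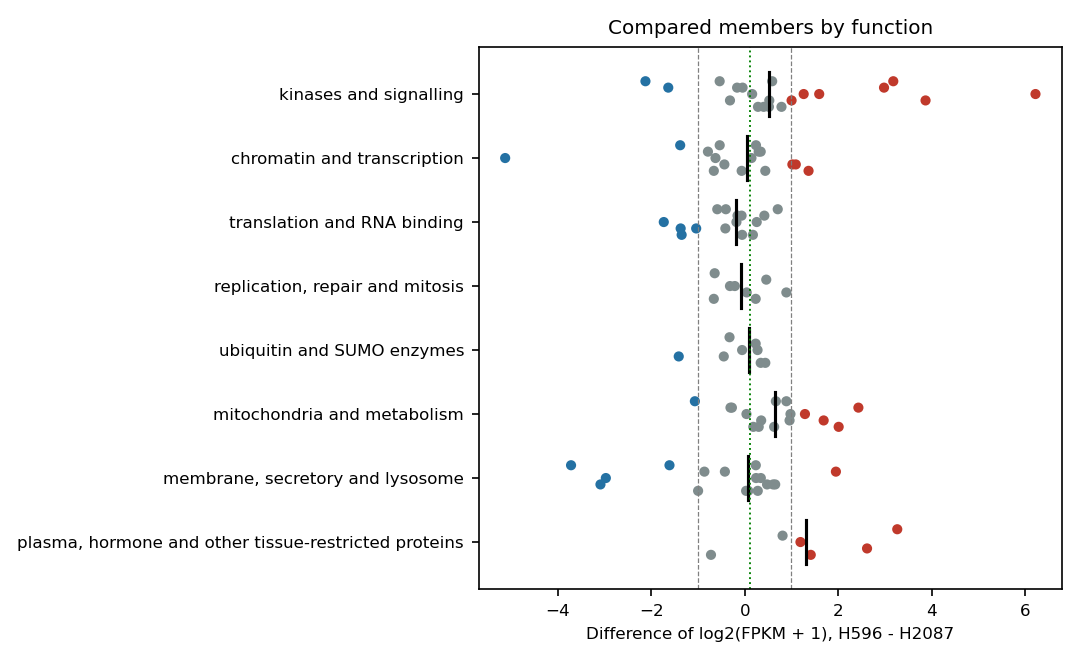
Difference between the lines in log2(FPKM + 1), as H596 minus H2087, of the compared members of 8 functional lists. Each point is 1 gene, a gene on several lists is drawn in each, the short black lines are list medians, dashed lines mark 2-fold, and red and blue points are members higher and lower in H596. The signalling row runs from -2.12 to 6.22, while the replication row stays within 2-fold.

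Among genes listed for mitochondria and metabolism the median was 0.65 over 16 compared, with 4 higher in H596 and 1 lower. The list also held CRYGS (0.67), a lens crystallin, and UBXN7 (0.89), a ubiquitin-binding protein. Its median lay between ALG3 (0.63) and CRYGS, so it does not describe metabolic genes alone. The higher genes do not work in mitochondria. SPTSSB, a subunit of the enzyme that starts sphingolipid synthesis, had 17 counts in H2087 and 649 in H596, or 0.101 and 4.94 FPKM, a difference of 2.43. The other 3 encode glycosyltransferases. B3GALNT1, which makes globoside, had 0 counts in H2087 and 441 in H596 and was at least 125-fold higher there, with 3 counts as the limit. B3GNT5, which starts lacto-series glycolipids, had 15.9 and 40.2 FPKM, and XXYLT1, a xylosyltransferase that extends O-glycans on Notch, had 2.56 and 13.3.

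Outside this list, ST6GAL1, which caps glycans with sialic acid, was in the opposite direction with 1601 counts in H2087 and 30 in H596, or 7.25 and 0.115 FPKM. The sugar-transferring genes of the stretch therefore did not all differ in the same direction. Among the mitochondrial genes proper, PARL, a rhomboid protease of the inner membrane, was lower in H596 at 25.02 FPKM against 53.5, a difference of -1.07 that was -0.90 in TPM. The fusion GTPases MFN1 and OPA1 were within 2-fold, at 20.9 and 28.6 FPKM in H2087 and 21.4 and 23.0 in H596.

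For membrane, secretory and lysosome genes the median was 0.08 over 17 compared, with 1 higher in H596 and 4 lower. LAMP3, a lysosomal membrane protein of activated dendritic cells that interferons also induce, had 182 counts in H2087 and 1373 in H596, or 1.13 and 7.24 FPKM, a difference of 1.95. TM4SF19, a membrane protein of the tetraspan-like L6 family, had 624 counts in H2087 and 2 in H596. With so few counts in H596 the ratio is loose, and its 95% counting interval ran from 101.4 to 3045 towards H2087. GPR160, an orphan receptor, had 866 and 20 counts, or 8.97 and 0.175 FPKM, and HRASLS, a phospholipid-modifying enzyme, had 375 and 4, or 7.35 and 0.0663. These 3 were nearly absent from H596. LIPH, a lipase that makes lysophosphatidic acid, was lower in degree rather than absent, at 28.2 FPKM in H2087 and 8.58 in H596.

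Of 37 genes listed as plasma, hormone or other tissue-restricted proteins, 31 were not compared because their mean was under 1 FPKM. Among them the liver plasma protein genes AHSG, FETUB, HRG and KNG1, which lie next to each other, had at most 23 counts in a library. The hormone genes ADIPOQ and SST had 0 counts in both. Of the 6 compared, 4 were higher in H596 and none was lower, and of those 4, RTP4 and APOD are known from many tissues. APOD and ACTRT3 were below 1 FPKM in H2087 and reached the required mean through H596 alone, which fixed their direction. RTP4 had 74 counts in H2087 and 1325 in H596, or 1.51 and 23.1 FPKM, a difference of 3.26. APOD, an apolipoprotein, had 10 and 402 counts, or 0.185 and 6.26 FPKM. KCNMB3, a potassium channel subunit, had 4.65 and 11.9 FPKM, a difference of 1.19 that was 0.68 over its NM_ transcripts, and its span overlaps the end of PIK3CA by 345 bases on the opposite strand. ACTRT3, an actin-related testis protein, had 0.291 and 2.44 FPKM. SERPINI1, the neuronal protease inhibitor neuroserpin, was the lowest of the 6 at -0.72, with 3.02 and 1.44 FPKM, and -1.21 with TMM.

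A further 29 members were on no list, and of the 16 compared 7 were higher in H596 and 2 were lower. ARL14, TPRG1, P3H2 and FAM43A were below 1 FPKM in H2087, and ST6GAL1 and NRROS were below it in H596. They reached the required mean through the other line alone, which fixed their direction. TCTEX1D2, a dynein light chain, had 3.84 FPKM in H2087 and 25.6 in H596, a difference of 2.46. Its neighbour TM4SF19 differed in the opposite direction, so adjacent genes here went apart, and a readthrough transcript of the pair had 35 counts in H2087 and 14 in H596. P3H2, a prolyl hydroxylase of collagen that lies next to TP63, had 0.450 and 5.996 FPKM, a difference of 2.27. FAM43A, a protein of unknown role, had 0.590 and 5.42 FPKM. The others higher in H596 were ARL14, a small GTPase, FNDC3B, a fibronectin-domain protein of the endoplasmic reticulum, and LMLN, a metalloprotease, with differences of 1.62, 1.25 and 1.09. Over its NM_ transcripts the difference of LMLN was 0.93, within 2-fold. TPRG1, of unclear role, had 0.282 FPKM in H2087 and 2.89 in H596. The lower pair were ST6GAL1 and NRROS, which holds latent TGF-beta on myeloid cells and had 744 counts in H2087 and 4 in H596.

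In terms of presence, 99 members reached 1 FPKM in both lines and 51 in neither. Another 10 did so only in H2087, namely LRRC34, GPR160, GNB4, MCF2L2, ETV5, DGKG, ST6GAL1, TM4SF19, NRROS and HRASLS. The 12 that did so only in H596 were ARL14, B3GALNT1, SPTSSB, ACTRT3, CAMK2N2, CRYGS, TPRG1, P3H2, FGF12, MB21D2, FAM43A and APOD. In the line where they fell short of it, LRRC34, DGKG, B3GALNT1 and FGF12 had 0 counts, and the other 18 members had at least 2. The same grouping was not counted over all coding genes, so these numbers cannot be called particular to the stretch. Members that reached 1 FPKM in a single line, where compared, met the required mean through that line alone, which fixed their direction.

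These 4 groups differed in the CpG content of the 250 bases before the start. The median number of CpG pairs was 20 for members expressed in both lines (97 windows), 21 for those expressed only in H2087 (9 windows), 11 for those only in H596 (12 windows) and 3 for those in neither (51 windows). An observed to expected CpG ratio of at least 0.6 was found in 81.4%, 66.7%, 58.3% and 21.6% of them, beside 61.4% of the 18324 windows of all coding genes. Members expressed in a single line thus spanned CpG-rich windows such as GNB4 and CAMK2N2, with 27 and 34 pairs, and CpG-poor windows such as ARL14 and APOD, with 1 and 2. TNFSF10 and RTP4 also belonged to the CpG-poor members, with 1 and 3 pairs. The groups of 9 and 12 windows are small, and their CpG counts overlap widely. Some windows lay within annotated exons, with all 250 bases for FGF12, B3GALNT1 and SPTSSB, so not every window lies outside transcribed sequence. For members without counts no transcript led, and the first by name was used. The windows of all coding genes were not grouped by expression, so the pattern cannot be called particular to the stretch.

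**Figure D5:**
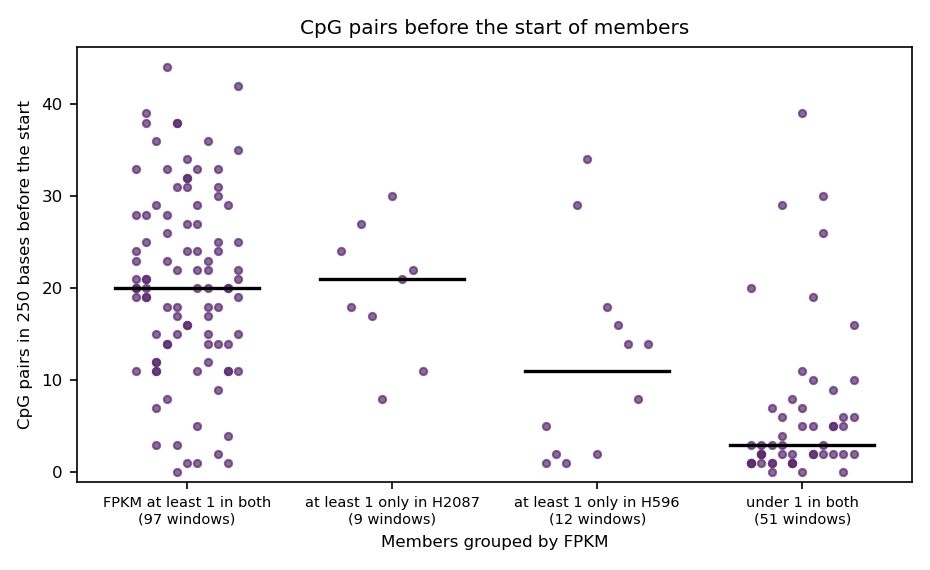
Number of CpG pairs in the 250 bases before the annotated start, for 169 members grouped by the line in which they reached 1 FPKM. Each point is 1 member and black lines are medians, which are 20, 21, 11 and 3 from left to right.

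Members that share a start region did not always differ in the same direction. Starts were those of the NM_ transcript with the highest mean FPKM, so ECE2, HRASLS and TCTEX1D2, which had no strand in the tables used here, were left out. Of the 5 head-to-head pairs with starts at most 1000 bases apart, 4 had both genes compared, and 2 of these had differences on the same side of 0. In these 4 pairs only RPL35A differed by 2-fold. Such pairs were not counted over all genes, so the split cannot be called particular to the stretch. WDR53, a WD-repeat protein, and FBXO45, a ubiquitin ligase subunit, start 180 bases apart and differed by -0.06 and -0.45. CEP19 and PIGX, a protein of GPI anchor synthesis, start 80 bases apart and differed by 0.89 and 0.35. PDCD10, a vascular scaffold protein, and SERPINI1 were on opposite sides, at 0.48 and -0.72. So were IQCG, a cilium protein, and RPL35A, which start 256 bases apart and differed by 0.30 and -1.04. The spans of IQCG and RPL35A also share 5670 bases on opposite strands. The strand setting of the counting is not given, so the value of IQCG is uncertain.

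Different forms led in the lines for 10 of the 66 members with several NM_ transcripts and at least 1 FPKM in both (15.2%), near the 15.99% of 6684 coding genes of the whole table chosen in the same way. The members were TBCCD1, CCDC50, ZMAT3, MYNN, KCNMB3, TNFSF10, WDR53, BCL6, DLG1 and MECOM. TBCCD1 showed the clearest change of share, given above, and in CCDC50, NM_178335 went from 46.2% in H2087 to 72.2% in H596. In TNFSF10 the order in H2087 rests on 44 against 43 counts. In MECOM, DLG1, BCL6 and WDR53 too, the leading forms were so close in at least 1 library that the order says little. Only NM_ forms were ranked, and in KCNMB3 the noncoding NR_028135 stood above the leading NM_171830 in H596, at 3.98 against 3.13 FPKM. At 10 FPKM or above in both lines, 3 of 34 members (8.82%) changed their leading form, against 12.7% of 3277 coding genes.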

How the data were processed

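RNA-seq data of 2 libraries, 1 of H2087 and 1 of H596 cells, were processed. The authors isolated total RNA with TRIzol and prepared stranded mRNA libraries. Per the submitters' processing notes, bcl2fastq 1.8.4, Trimmomatic, HISAT2 2.0.5 and StringTie 1.3.3b were used with hg19. The authors deposited estimated counts and FPKM values of RefSeq genes and transcripts. The estimated counts are whole numbers, and how they were made and which strand setting was used are not given in the sources used here.

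Differences were computed as log2(FPKM + 1), with a pseudocount of 1, for genes whose mean FPKM reached 1. No p-value was computed, since each line had 1 library. Counting intervals are 95% Wilson intervals of the share of the total count, and exact conditional intervals for folds of counts (scipy 1.17.1). They cover counting error only, and the count totals set this precision. Strands came from GENCODE 44 mapped to GRCh37. Alternatives were a pseudocount of 0.1, other filters, TPM, TMM scaling (edgeR 4.0.16 in R 4.3.3), centring, transcript sums, the left-out symbols put back, a start at 165 Mb and, chosen after the data were seen, NM_ transcripts only. Python 3.11.15, numpy 2.4.6, pandas 2.3.3 and matplotlib 3.10.9 were used, and the calls and intervals were tested on simulated data.

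The members and gene lists were chosen with earlier results of these data known. The genes named by rule were those of the amplicon list, the 5 that differed most towards each line, the 5 highest in each line, those of at least 100 FPKM in H2087, and the highest and lowest of each functional list. Other genes were named after their values were seen.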

Additional observations from a re-analysis of the deposited data

Results flagged for a closer look

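Besides the coding members, the interval held 131 genes with noncoding transcripts only, which enter none of the comparisons above. Of these, 57 had more than 3 counts, which is the limit set for a count of 0, in at least 1 library. There are no control samples to set them against. The 5 with the highest levels are given here because their signal lies outside the main measurement. NCBP2-AS2, a transcript divergent from the cap-binding protein gene NCBP2, had 29.4 FPKM in H2087 and 24.6 in H596. The small nucleolar RNAs listed within the span of EIF4A2 came next. SNORD2 had 10.99 and 20.5 FPKM, SNORA4 had 15.96 and 15.6, and SNORA63 had 15.8 and 14.2. SDHAP1, a pseudogene copy of SDHA and therefore uncertain, had 7.61 and 12.8 FPKM. How the reads of small RNAs inside a gene were divided from those of the gene is not given in the sources used here. Among the 23 noncoding genes with a mean of at least 1 FPKM, 2 were at least 2-fold higher in H596 and 3 were lower, beside 18.2% and 14.2% over all genes compared.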

How the results depend on the processing

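No member called higher or lower among the genes named by rule turned its direction under any alternative run, nor did the median of all members. The median of the 170 to 180 Mb interval, 0.04, was -0.05 with a mean FPKM of at least 5 or with the left-out symbols put back, -0.09 with TMM and -0.08 after centring, and TNIK, ZNF639, EIF4G1 and AP2M1, all near 0, changed sign under at least 1 scaling. With a mean FPKM of at least 5 as the filter, 91 members were compared, of which 15 were higher in H596 and 9 lower. In TPM the median difference of the members was 0.43, beside 0.29 over all genes, and 13 members reached 100 in H2087 and 15 in H596, because this scale multiplies all FPKM values of a library. TMM scaling moved the median of all genes to 0.01 and that of the members to 0.14. The split of higher against lower members was 26 to 16 as reported, 33 to 16 in TPM, 28 to 19 with TMM, 22 to 17 after centring and 23 to 15 with NM_ transcripts only. The leading form differed in 3 members when 10 FPKM was asked for in both lines. Of the genes named by rule, MECOM was within 2-fold with TMM (0.98) and after centring (0.90), and RPL35A (-0.86) and PARL (-0.90) were within 2-fold in TPM.

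With 1 library a line, none was left out. No paired analysis was possible because the labels give no replicate numbers and each line had 1 library. Line and preparation cannot be told apart. Counts of 4 or fewer limit TM4SF19, HRASLS and NRROS in H596.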

Other observations

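Members just inside and outside the 2-fold limit were close in value. PARL (-1.07) and RPL35A (-1.04) were counted as lower while MELTF, a melanotransferrin, was not at -0.997, with 8.94 FPKM in H2087 and 3.98 in H596. On the other side, MAP3K13 (1.002) and MECOM (1.02) were counted as higher, while MCCC1 (0.96), a subunit of a leucine-degrading enzyme with 42.1 and 82.8 FPKM, and PIGZ (0.98) were not.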
